A study of Homo sapiens with 6 samples.

Results

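The mitochondrial ribosome is the particle inside mitochondria that translates the few mRNAs of the mitochondrial genome, which encode core subunits of the respiratory chain and of ATP synthase. Its RNA comes from the mitochondrial chromosome, but all of its proteins are encoded in the nucleus, made in the cytosol and imported. The large subunit joins amino acids and carries the exit tunnel, and the small subunit holds the mRNA and decodes it; each combines proteins with bacterial relatives and proteins found only in mitochondria. The genes described here were chosen by symbol alone, MRPL or MRPS followed by a number and at most 1 letter from A to C, which gave 78 of the 62700 genes counted, 49 of the large subunit (MRPL) and 29 of the small subunit (MRPS). Symbols and position do not coincide in every case: the products of MRPS18A and MRPS30 sit in the large subunit, and that of MRPS36 is now described as a component of the 2-oxoglutarate dehydrogenase complex.

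The values came from poly(A) RNA sequencing of KYSE510, an established line of oesophageal squamous cell carcinoma, in 3 libraries after knockdown with an shRNA directed at what the labels call RNH1 (shRNH1) and 3 libraries with a control shRNA (shControl), whose genotype the labels give as WT. All cells were grown in the same serum-containing medium, the knockdown group carries 1 hairpin label, and the study made it as a model of induced R-loops, in which RNA pairs with DNA. Totals were 31394687 to 33421217 counts in shRNH1 libraries and 40225486 to 41103220 in shControl libraries. RNASEH1, the nuclease that cuts the RNA of RNA:DNA hybrids and that has an isoform imported into mitochondria, had 251, 247 and 232 counts in shRNH1 libraries and 1357, 1344 and 1015 in shControl libraries (log2 fold change -2.14 ± 0.116 (SE), n = 3 each, edgeR adjusted p = 1.61e-13; exact two-sided permutation p = 0.1, the smallest that 3 against 3 allows). RNH1, which is also the symbol of the ribonuclease inhibitor, had a log2 fold change of -0.19 ± 0.112 (SE, edgeR adjusted p = 0.221; exact permutation p = 0.4). Summed CPM (counts scaled to the library total after TMM normalisation) of 8 squamous markers was 581 to 606 in shRNH1 libraries and 740 to 880 in shControl libraries; KRT5, KRT14, KRT6A and SFN fell, SOX2 and DSC3 rose, and TP63 and DSG3 did not pass. Of markers of other cell types, 7 fibroblast genes, 4 of them tested and COL1A2 and DCN at 0, summed to 511 to 570 CPM in shRNH1 libraries and 321 to 359 CPM in shControl libraries. The 4 did not move together: FBLN1 (log2 fold change 0.79) and COL1A1 (0.98) rose, while MFAP5 (-2.04) and PDGFRB (-0.91) fell. The 8 leukocyte genes, 3 of them tested, summed to 8.18 to 10.3 CPM in shRNH1 libraries and 5.99 to 7.57 CPM in shControl libraries. The 6 endothelial genes, 4 of them tested and KDR at 0, summed to 20.8 to 23.4 CPM in shRNH1 libraries and 21.1 to 22.7 CPM in shControl libraries; the part of these differences in the results that follow was not tested. All 37 genes of the mitochondrial chromosome, the ribosomal RNAs included, were listed at 0, so the RNA partners and the templates of these proteins could not be measured. In bulk RNA, fewer cells and less RNA per cell cannot be told apart.

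Of the 78 genes, 77 had enough counts for the test, 48 of the large and 29 of the small subunit. MRPL53 was listed at 0 in the 6 libraries, and 45.2% of its exon length overlaps CCDC142 in the GENCODE 29 annotation. The promoters of 3 genes that fell and of the one with the highest fold change are shown first, so that the motif matches counted for all windows can be read in sequence. Each line gives the bases before the start of the gene, on the plus strand of GRCh38.p14 as listed by RefSeq and up to the earlier of the RefSeq and GENCODE 29 starts. They lie at chr14:22829637-22829878 (MRPL52), chr17:75012420-75012669 (MRPL58), chr20:3045802-3045944 (MRPS26) and chr7:55951627-55951818 (MRPS17). Capitals mark AAGATGGC (YY1), CCGGAAG (ETS family, which includes the GABP factors) and GGGCGG (SP/KLF), each on either strand.

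MRPL52: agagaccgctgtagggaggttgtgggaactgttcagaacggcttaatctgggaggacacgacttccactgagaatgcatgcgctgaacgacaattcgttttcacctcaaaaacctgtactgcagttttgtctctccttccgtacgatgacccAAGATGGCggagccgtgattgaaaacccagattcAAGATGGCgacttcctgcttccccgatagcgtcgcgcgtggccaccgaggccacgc
MRPL58: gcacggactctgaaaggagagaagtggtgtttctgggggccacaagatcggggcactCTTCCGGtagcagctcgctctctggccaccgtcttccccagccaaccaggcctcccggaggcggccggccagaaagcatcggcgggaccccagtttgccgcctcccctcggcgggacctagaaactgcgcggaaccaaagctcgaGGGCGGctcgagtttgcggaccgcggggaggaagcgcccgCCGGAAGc
MRPS26: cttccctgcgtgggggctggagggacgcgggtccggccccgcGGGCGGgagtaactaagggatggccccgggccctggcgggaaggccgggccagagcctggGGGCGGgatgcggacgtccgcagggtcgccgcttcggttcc
MRPS17: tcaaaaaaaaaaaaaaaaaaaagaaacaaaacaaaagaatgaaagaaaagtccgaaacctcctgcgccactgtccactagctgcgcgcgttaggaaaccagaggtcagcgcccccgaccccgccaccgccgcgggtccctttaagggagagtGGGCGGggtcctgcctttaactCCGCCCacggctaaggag

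The MRPL52 stretch held a pair of YY1 matches, MRPL58 a pair of ETS matches and 1 SP/KLF match, and MRPS26 and MRPS17 a pair of SP/KLF matches each. The stretches stop before the end of the windows searched: the MRPL52 window held 1 ETS match as well, and the MRPS26 window 1 ETS and 1 further SP/KLF match. RefSeq listed a promoter window, from 250 bases before the start to 50 after it, for 69 of the 78 genes. The ETS letters were in 42.0% of these 69 windows, against 18.4% of the 10656 windows of other tested protein-coding genes and 10.7% of all 27305 windows. The YY1 letters were in 28.99% of the 69 windows, against 5.002% of the other tested protein-coding genes and 3.03% of all windows. The palindromic core of the NRF1 motif was in 11.6% against 11.2% of the other tested genes, the E-box CACGTG in 8.70% against 9.89%, and the SP/KLF letters in 60.9% against 69.7%. Among the genes that fell, 11 of 22 windows held the ETS letters and 8 of 22 the YY1 letters, against 17 of 46 and 12 of 46 among the genes that did not pass. The YY1 and ETS letters thus occurred both in windows of genes that fell and in windows of genes that did not. In 8 windows of the 69 both motifs were found, and in 0 of them did the matches overlap. The 5 motifs were searched on both strands, a match is a match of letters and not a bound site, and the windows follow RefSeq starts, so they can miss the start used in these cells.

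The first question was whether mRNAs of the large subunit differed in the knockdown cells. Of the 48 tested, 14 fell and 0 rose in shRNH1 libraries (29.2%; quasi-likelihood F test of edgeR, p adjusted by Benjamini-Hochberg, threshold 0.05), while 27.6% of all 19682 genes tested passed, 12.3% as lower and 15.3% as higher. The median log2 fold change was -0.20, against 0.02 for all genes tested, and 40 of the 48 values lay below 0. At an unadjusted p under 0.05, 22 were lower and 0 higher, and the share of all genes at that threshold was not computed. DESeq2 called 15 lower and 0 higher, and limma-voom 14 lower and 0 higher. The libraries did not overlap for 16 large subunit genes that were lower and 0 that were higher, where 18.6% and 21.4% of all genes tested did so. These mRNAs are moderately abundant, and calls depend on abundance: among 3609 genes whose level lay between the lower and the upper quartile of the 77, 18% fell and 17.8% rose. Fold changes ran from -0.69 for MRPL52 to 0.11 for MRPL28, where the shRNH1 mean was 61.9% and 108% of the shControl mean.

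**Figure D1:**
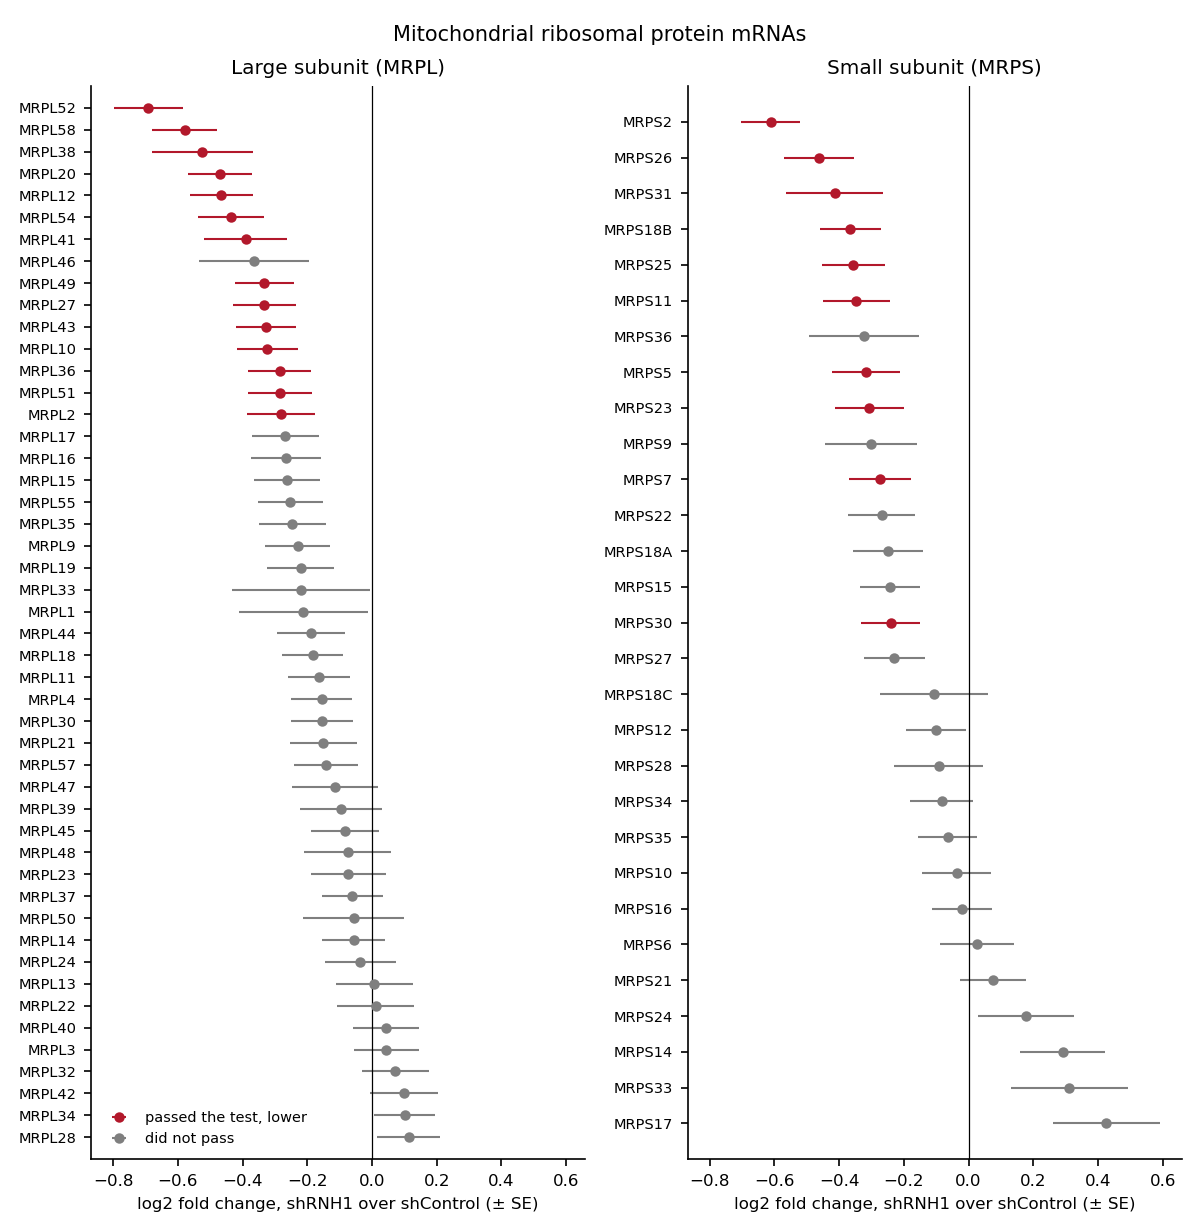
Log2 fold change of shRNH1 over shControl (x axis) for the 48 large subunit genes on the left and the 29 small subunit genes on the right, with bars of 1 SE. Red points passed the test and were all lower in shRNH1 libraries, 14 in the large and 10 in the small subunit; grey points did not pass.

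Of the 29 small subunit genes, 10 fell and 0 rose (34.5%). Of all genes tested 12.3% fell and 15.3% rose, and of those between the quartiles of the level of the 77, 18% and 17.8%. The median log2 fold change of the 29 was -0.24, and 23 values were below 0. DESeq2 called 12 lower and 0 higher, and limma-voom 11 lower and 0 higher. At an unadjusted p under 0.05, again without a share of all genes, 15 were lower and 2, MRPS14 and MRPS17, were higher. The libraries did not overlap for 15 genes that were lower and for the 2 that were higher, where 18.6% and 21.4% of all genes tested did so. The count of 10 was less steady than that of the large subunit: it was 6 without any single shRNH1 replicate and 5 without shControl replicate 2, while the large subunit count stayed between 11 and 14 with any library left out. Scaling by library size alone, which moved the median of all genes to 0.13, left 5 large subunit genes lower and 1 higher, and 3 small subunit genes lower and 2 higher. Whether the subunits differed from each other was not tested.

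Summed over genes, the large subunit took 2206, 2036 and 2159 CPM in shRNH1 libraries and 2451, 2279 and 2501 CPM in shControl libraries, a mean of 2134 ± 87.8 against 2410 ± 116 CPM (SD, n = 3 each) or 88.5%. The small subunit took 1379, 1264 and 1354 CPM in shRNH1 libraries and 1605, 1559 and 1596 CPM in shControl libraries, a mean of 1333 ± 60.4 against 1586 ± 24.4 CPM (SD, n = 3 each) or 84.0%. For both sums, every shRNH1 library lay below every shControl library. The same held for the sum over all genes tested, which depends on the TMM scaling. That sum was 984320, 950381 and 950425 CPM in shRNH1 libraries and 1032240, 993201 and 1097060 CPM in shControl libraries. Its part in the lower sums of the subunits was not tested. The shRNH1 libraries were not alike: the median of large subunit genes, as log2 CPM minus the shControl mean, was -0.09, -0.31 and -0.19 in shRNH1 replicates 1, 2 and 3, and that of small subunit genes -0.13, -0.28 and -0.13. In shRNH1 replicate 2, cytosolic ribosomal proteins (-0.31) and nuclear subunits of oxidative phosphorylation (-0.13) were also lowest, while the median of all genes was 0.02. Without that replicate, the median fold change was -0.16 for the large and -0.17 for the small subunit.

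**Figure D2:**
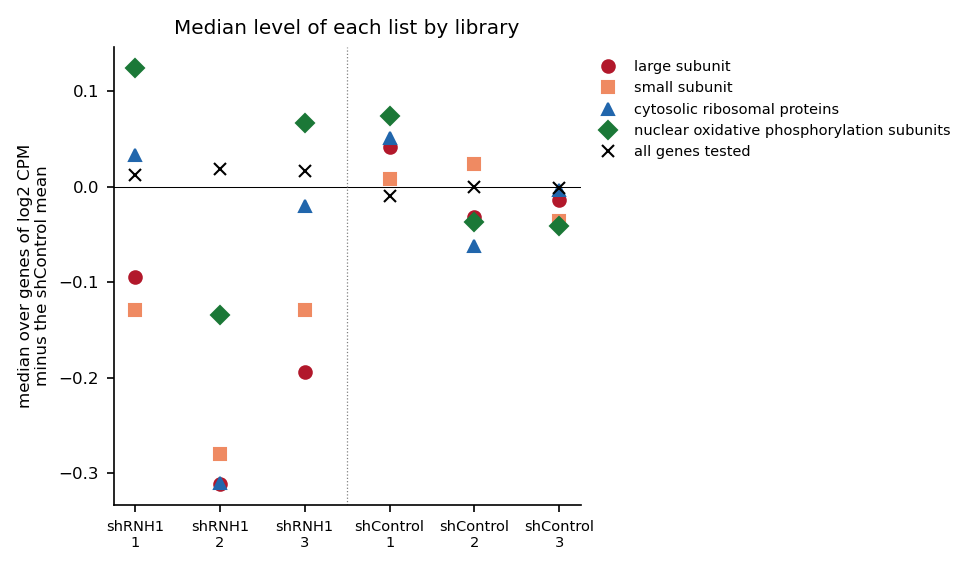
Median over genes of log2 CPM minus the shControl mean (y axis) for each library (x axis), by list. Both mitoribosomal lists lie below 0 in the 3 shRNH1 libraries, lowest in replicate 2, where the cytosolic ribosomal proteins are as low as the large subunit genes.

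Of the 24 genes that fell, 8 fell under each of the 16 other settings tried as well: MRPL12, MRPL20, MRPL52, MRPL54 and MRPL58 of the large subunit and MRPS2, MRPS18B and MRPS26 of the small subunit. MRPL52 (ENSG00000172590; chromosome 14, 22829879 to 22835037, plus strand) encodes a protein with no bacterial relative. It had 16.9, 17.1 and 14.5 CPM in shRNH1 libraries and 28.8, 24.6 and 25.05 CPM in shControl libraries, a log2 fold change of -0.69 ± 0.108 (SE, edgeR adjusted p = 1.91e-05). The groups were far apart relative to the spread within each. MRPL58 (ENSG00000167862; chromosome 17, 75012670 to 75021261, plus strand) encodes a peptidyl-tRNA hydrolase built into the large subunit that can free stalled ribosomes. It had 23.2, 21.9 and 21.9 CPM in shRNH1 libraries and 36.9, 30.1 and 33.1 CPM in shControl libraries, a log2 fold change of -0.58 ± 0.102 (SE, edgeR adjusted p = 8.54e-05). Its shRNH1 libraries lay close together, below every shControl library.

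MRPL20 encodes a relative of bacterial bL20, which binds the large ribosomal RNA. It had 34.9, 27.9 and 31.9 CPM in shRNH1 libraries and 44.6, 43.6 and 42.9 CPM in shControl libraries (log2 fold change -0.47 ± 0.099 SE, edgeR adjusted p = 0.000682). The shControl libraries were close together and the shRNH1 libraries more spread, with no overlap. MRPL54, a protein specific to mitochondria, had 17.8, 19.1 and 19.2 CPM in shRNH1 libraries and 27.0, 22.9 and 26.0 CPM in shControl libraries (log2 fold change -0.44 ± 0.103 SE, edgeR adjusted p = 0.00208). Here too the groups did not overlap.

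The stalk of the large subunit binds the factors that drive translation, and 2 of the 3 genes chosen for it fell, where 12.3% of all genes tested did. MRPL12, the repeated stalk protein, which has also been described to bind the mitochondrial RNA polymerase, had 48.9, 47.4 and 47.9 CPM in shRNH1 libraries and 69.3, 56.9 and 72.9 CPM in shControl libraries (log2 fold change -0.47 ± 0.0985 SE, edgeR adjusted p = 0.00071). The shRNH1 libraries were nearly equal and below all shControl libraries. Of the MRPL12 exon length, 68.2% overlaps AC139530.2 on the same strand, so reads of these genes may be split between them. MRPL10, the stalk base, had 46.6, 39.6 and 42.5 CPM in shRNH1 libraries and 54.8, 53.5 and 52.6 CPM in shControl libraries (log2 fold change -0.32 ± 0.0939 SE, edgeR adjusted p = 0.0106). That call was lost with library size alone. MRPL11, which joins the stalk to the ribosomal RNA, did not pass, with a log2 fold change of -0.16 ± 0.0964 (SE, edgeR adjusted p = 0.223).

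Of 4 genes chosen for the central protuberance, the crown of the large subunit that faces the small subunit, only MRPL38 fell. This list, like that of the tunnel exit below, need not hold every protein of its region, so the counts do not describe the whole region. MRPL38 had 3.69, 4.87 and 4.43 CPM in shRNH1 libraries, against 5.63, 6.65 and 6.40 CPM in shControl libraries (log2 fold change -0.52 ± 0.156 SE, edgeR adjusted p = 0.0126). MRPL38 shares 41.1% of its exon length with 2 other annotated genes, one of them on the same strand. MRPL46 had a log2 fold change of -0.37 with edgeR adjusted p = 0.116, MRPL48 one of -0.08 and MRPL40 one of 0.04. At the tunnel exit, where the new chain leaves toward the inner membrane, 0 of 6 genes passed with edgeR, 1 at an unadjusted p under 0.05 and 1 with DESeq2 and with limma-voom. That gene was MRPL17 at -0.27 (edgeR adjusted p = 0.0534), with 104, 77.4 and 82.4 CPM in shRNH1 libraries and 109, 99.0 and 109 CPM in shControl libraries. MRPL22, MRPL23, MRPL24, MRPL45 and MRPL47 had log2 fold changes of -0.11 to 0.01.

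The other 7 large subunit genes that passed had log2 fold changes of -0.39 to -0.28. MRPL49 had a log2 fold change of -0.33 (edgeR adjusted p = 0.00681), MRPL27 one of -0.33 (adjusted p = 0.0109) and MRPL43 one of -0.33 (adjusted p = 0.00799). MRPL36 had -0.29, MRPL51 -0.28 and MRPL2, which helps form the peptidyl transferase centre, -0.28 with edgeR adjusted p = 0.0485, close to the threshold. MRPL41 was the 1 gene of these 14 whose groups overlapped: it had 150, 183 and 156 CPM in shRNH1 libraries and 201, 164 and 275 CPM in shControl libraries (log2 fold change -0.39 ± 0.128 SE, edgeR adjusted p = 0.0232). Its shControl replicate 2 lay below shRNH1 replicate 2, and its shControl spread was 56.4 CPM (SD). MRPL43 shares 36.9% of its exon length with SEMA4G and TWNK on the other strand, and the sources used here do not say whether counting used strand.

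**Figure D3:**
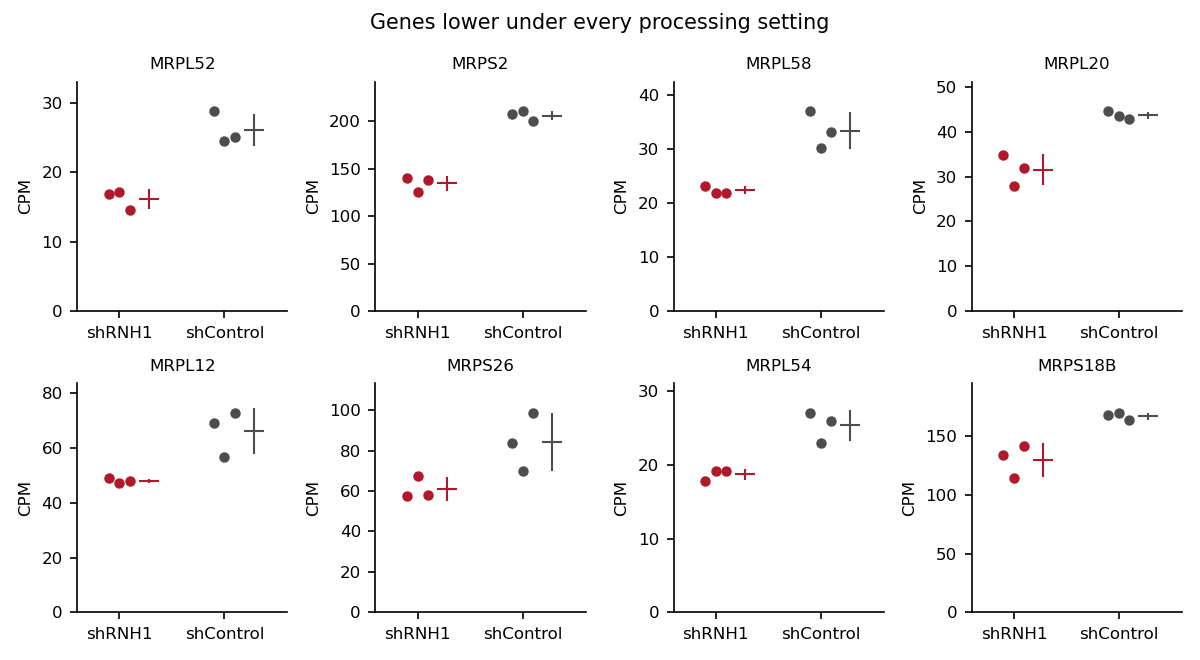
CPM (y axis, from 0) of the 8 genes that fell under every setting, with 1 point per library and the mean and SD beside it. In each panel the 3 shRNH1 libraries lie below the 3 shControl libraries.

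In the small subunit, MRPS2, the relative of bacterial uS2, had the largest fall and is also one of the most abundant of these mRNAs. It had 141, 126 and 139 CPM in shRNH1 libraries and 208, 211 and 201 CPM in shControl libraries, a log2 fold change of -0.61 ± 0.0906 (SE, edgeR adjusted p = 9.78e-06). The gap between groups was larger than the spread within either, and the shRNH1 mean was 65.5% of the shControl mean. MRPS26, a protein specific to mitochondria, had 57.5, 67.6 and 57.8 CPM in shRNH1 libraries and 83.6, 69.8 and 98.6 CPM in shControl libraries (log2 fold change -0.46 ± 0.109 SE, edgeR adjusted p = 0.00198). Its groups did not overlap, but shRNH1 replicate 2 and shControl replicate 2 lay close together.

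Humans have 3 paralogs of the bacterial protein bS18, which occupy different places in the particle. MRPS18B fell, with 134, 114 and 141 CPM in shRNH1 libraries and 167, 170 and 163 CPM in shControl libraries (log2 fold change -0.37 ± 0.0949 SE, edgeR adjusted p = 0.00457). MRPS18A, the paralog of the large subunit, had a log2 fold change of -0.25 ± 0.108 (SE, edgeR adjusted p = 0.0922), and MRPS18C one of -0.11 ± 0.168 (SE, edgeR adjusted p = 0.694). MRPS18B was thus the only one of the 3 to pass, and the paralogs were not tested against each other. Exons of MRPS18A and MRPS18C overlap genes on the other strand over 47.0% and 40.2% of their length.

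Among the other small subunit genes that fell, MRPS25 had a log2 fold change of -0.36 (edgeR adjusted p = 0.0064) and MRPS11 one of -0.35 (adjusted p = 0.012). MRPS5 had -0.32 (adjusted p = 0.0243), MRPS23 -0.31 (adjusted p = 0.0318) and MRPS7 -0.27 (adjusted p = 0.0338). MRPS5, MRPS7 and MRPS11 have bacterial relatives that bind the small ribosomal RNA, while MRPS23 and MRPS25 are specific to mitochondria. MRPS31 had 5.81, 4.47 and 5.37 CPM in shRNH1 libraries and 6.22, 7.16 and 7.46 CPM in shControl libraries, a log2 fold change of -0.41 ± 0.149 (SE, edgeR adjusted p = 0.0389). MRPS30 had one of -0.24 ± 0.091 (SE, edgeR adjusted p = 0.0492), close to the threshold.

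Single libraries mattered for the smaller falls. Of the 24 genes, 10 fell whichever library was left out, the 8 named first and MRPL10 and MRPL49. Without shRNH1 replicate 1, the calls of MRPL2, MRPL38, MRPL41, MRPS5, MRPS11, MRPS23, MRPS25 and MRPS30 were lost, at log2 fold changes of -0.42 to -0.20. Without shRNH1 replicate 2, those of MRPL2, MRPL36, MRPL51, MRPS7, MRPS23, MRPS30 and MRPS31 were lost, at -0.31 to -0.20, and without shRNH1 replicate 3 those of MRPL36, MRPL41, MRPL43, MRPS5, MRPS7, MRPS23 and MRPS31, at -0.43 to -0.22. Leaving out control libraries had effects of similar size. Without shControl replicate 1, the calls of MRPL2, MRPL36, MRPL51, MRPS7, MRPS23 and MRPS30 were lost, at -0.31 to -0.19. Without shControl replicate 2, those of MRPL2, MRPL27, MRPL36, MRPL51, MRPS5, MRPS7, MRPS25, MRPS30 and MRPS31 were lost, at -0.40 to -0.20, and without shControl replicate 3 those of MRPL41, MRPS5, MRPS11, MRPS30 and MRPS31, at -0.36 to -0.16. In each case the log2 fold change stayed below 0.

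The highest fold changes of all 77 genes were in the small subunit, in mRNAs of low abundance, and none passed. MRPS17, the relative of bacterial uS17, had 5.22, 4.76 and 5.33 CPM in shRNH1 libraries and 4.03, 4.11 and 3.23 CPM in shControl libraries (log2 fold change 0.43 ± 0.164 SE, edgeR adjusted p = 0.0543). Its groups did not overlap. It passed as higher with library size alone, with protein-coding genes alone and without shRNH1 replicate 2, and 27.0% of its exon length overlaps NIPSNAP2 and AC092647.5 on the same strand. MRPS33 had a log2 fold change of 0.31 ± 0.181 (SE, edgeR adjusted p = 0.218) and MRPS14 one of 0.29 ± 0.131 (SE, edgeR adjusted p = 0.102).

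Levels per kb of transcript differed widely within a subunit. In the large subunit they ran from 2.67 CPM per kb (MRPL50) to 177 (MRPL37), mean of the 6 libraries, with a median of 36.8. MRPL38 was the second lowest at 2.80 and MRPL28 the second highest at 165. In the small subunit they ran from 3.47 (MRPS17 and MRPS36) to 113 (MRPS2 and MRPS27), with a median of 26.9. Proteins of 1 particle were thus encoded by mRNAs whose levels per kb spanned more than an order of magnitude, in both groups. MRPL37 had a log2 fold change of -0.06, MRPL50 one of -0.06, MRPS27 one of -0.23 and MRPS36 one of -0.32, and none of the 4 passed.

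**Figure D4:**
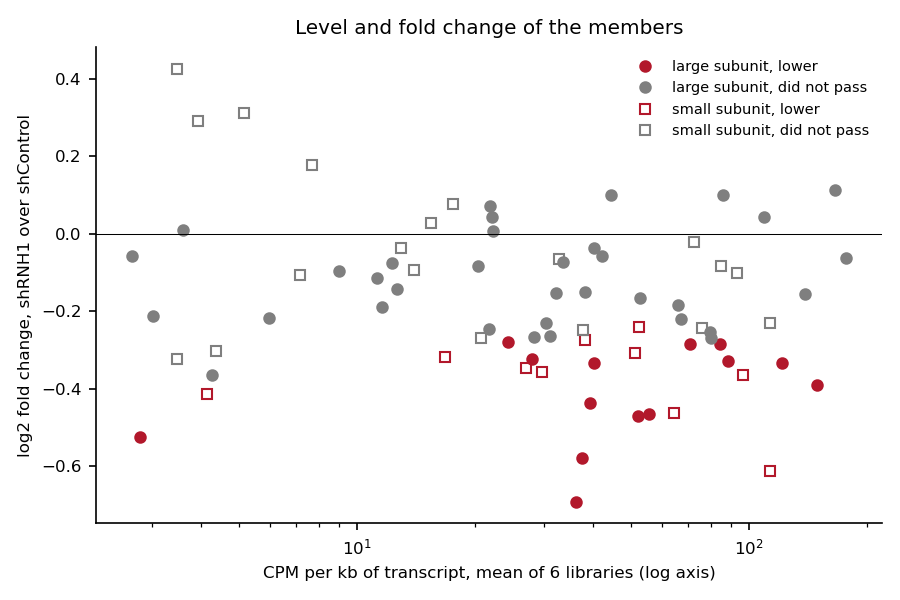
Log2 fold change of shRNH1 over shControl (y axis) against CPM per kb of transcript as the mean of 6 libraries (x axis, log scale) for the 77 genes, with circles for the large and squares for the small subunit. The genes that fell (red) run from 2.80 to 149 CPM per kb, and the highest fold changes belong to small subunit genes below 8 CPM per kb.

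By origin, 6 of 29 large subunit genes listed as relatives of bacterial ribosomal proteins fell (median log2 fold change -0.18), as did 8 of the 19 not listed so (median -0.25). In the small subunit, 5 of 18 listed as such relatives fell (median -0.10), as did 5 of the 11 not listed so (median -0.27). The genes not listed were taken as the remainder, MRPL58 among them, and need not all be specific to mitochondria. In that order, these counts were 20.7%, 42.1%, 27.8% and 45.5%. Of all genes tested 12.3% fell, and 18% of those between the quartiles of the level of the 77. The difference between origins was not tested. By GC content of the transcript, 2 of the 25 genes of lowest GC content fell (median -0.11), 11 of 27 in the middle (median -0.27) and 11 of the 25 of highest GC content (median -0.25). Across the 77 genes, which share libraries and are not independent, Pearson's r of the log2 fold change was -0.29 with GC content, 0.12 with transcript length and -0.19 with mean log2 CPM. After correction for GC content and length, the number of genes that fell was higher in each subunit, but within 1.5 times of that in the main fit. Of the 24 genes, 23 still fell and MRPL51 did not. Among the genes added were MRPL35, MRPS22 and MRPS27, of the 25 of lowest GC content. The counts by GC content were not redone after the correction. Of the 24 genes that fell, 12 had exons overlapping another gene and 12 had none, out of 41 and 37 genes.

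The particle also holds proteins whose genes carry other symbols, and 2 of 5 fell (40%), where 12.3% of all genes tested did. The median log2 fold change of the 5 was -0.06. AURKAIP1, of the small subunit, had 141, 162 and 133 CPM in shRNH1 libraries and 206, 172 and 235 CPM in shControl libraries (log2 fold change -0.49 ± 0.107 SE, edgeR adjusted p = 0.000958). GADD45GIP1, of the large subunit, had 51.1, 67.0 and 49.9 CPM in shRNH1 libraries and 73.6, 58.9 and 84.7 CPM in shControl libraries, with overlap between the groups (log2 fold change -0.37 ± 0.119 SE, edgeR adjusted p = 0.0213). Its call was lost with library size alone (-0.25), without shRNH1 replicate 1 (-0.31) or 3 (-0.29) and without shControl replicate 1 (-0.36) or 3 (-0.24). The small subunit proteins DAP3, CHCHD1 and PTCD3 had log2 fold changes of -0.06, 0.05 and 0.04 and did not pass.

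Factors that build the particle were chosen as a list of 29, of which 11 fell and 1 rose (37.9% and 3.45%). Of all genes tested, 12.3% fell and 15.3% rose. The median log2 fold change of the 29 was -0.17. RBFA, which helps mature the small subunit RNA, had 15.2, 15.4 and 15.6 CPM in shRNH1 libraries and 22.2, 22.7 and 22.6 CPM in shControl libraries, a log2 fold change of -0.55 ± 0.101 (SE, edgeR adjusted p = 0.000173). Its libraries were nearly equal within each group. AFG3L2, a subunit of the inner membrane protease that processes MRPL32, had a log2 fold change of -0.49, and MTG2, a GTPase of large subunit assembly, one of -0.47. MALSU1, which keeps the small subunit off an unfinished large subunit, rose, with a log2 fold change of 0.29 ± 0.0993 (SE, edgeR adjusted p = 0.0286). That call was lost with DESeq2, with no filter, with a replicate block and after correction for GC content and length. It was also lost on leaving out any library other than shRNH1 replicate 1 (log2 fold change 0.26 to 0.30). Summed CPM of the 29 was 1434 ± 53.3 in shRNH1 libraries and 1703 ± 51.6 in shControl libraries (SD, n = 3 each), or 84.2%. The sum over all genes tested, given above, was lower in shRNH1 libraries as well. With library size alone, 6 of the 29 were lower and 2 higher at a median of -0.055, and without shRNH1 replicate 1, 7 were lower.

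Of 18 mitochondrial translation factors, 4 fell (22.2%) and 0 rose (median -0.14), with 0 higher at an unadjusted p under 0.05. The shares of all genes tested were 12.3% lower and 15.3% higher. Among genes between the quartiles of the level of the mitoribosomal genes, 18% fell and 17.8% rose. The share of translation factors that fell was thus close to the 18% of that background, and the difference was not tested. DESeq2 called 3 lower and 0 higher, and limma-voom 4 lower and 0 higher. TSFM, the exchange factor of the elongation factor TUFM, had the largest fold, -0.79 ± 0.267 (SE, edgeR adjusted p = 0.0276), at 1.06, 1.17 and 0.94 CPM in shRNH1 libraries and 1.52, 2.15 and 1.82 CPM in shControl libraries. That call was lost with library size alone, without shRNH1 replicate 1 (-0.79) or 3 (-0.71) and without shControl replicate 2 (-0.66). TACO1, a translational activator of COX1, had a log2 fold change of -0.44 (edgeR adjusted p = 0.0028) and MTIF2, the initiation factor, one of -0.34 (edgeR adjusted p = 0.0207), a call lost with library size alone (-0.23), without shRNH1 replicate 2 (-0.29) or 3 (-0.31) and without shControl replicate 2 (-0.31). Library size alone gave 1 lower and 1 higher at a median of -0.028, and 1 or 2 were lower without shRNH1 replicate 1 or 3 or without shControl replicate 2. Summed CPM of the 18 was 101.7% of that in shControl libraries.

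Of 10 nuclear regulators of mitochondrial genes, 7 fell and 1 rose (70% and 10%, against 12.3% and 15.3% of all genes tested). The ones that moved most belong to one coactivator family. PPRC1 had 192, 170 and 175 CPM in shRNH1 libraries and 272, 301 and 290 CPM in shControl libraries (log2 fold change -0.69 ± 0.093 SE, edgeR adjusted p = 2.57e-06). PPARGC1B had 44.4, 50.3 and 45.4 CPM in shRNH1 libraries and 69.2, 74.9 and 77.2 CPM in shControl libraries (log2 fold change -0.66 ± 0.0932 SE, edgeR adjusted p = 5.05e-06). PPARGC1A, the third member of that family, went the other way, with 12.1, 11.5 and 13.0 CPM in shRNH1 libraries and 4.32, 5.42 and 5.13 CPM in shControl libraries (log2 fold change 1.30 ± 0.134 SE, edgeR adjusted p = 3.04e-08). MYC fell, with a log2 fold change of -0.42, as did NRF1 (-0.39), TFAM (-0.36), ESRRA (-0.31) and YY1 (-0.26, edgeR adjusted p = 0.0317). The ETS factor GABPA (0.22) and its partner GABPB1 (-0.19) did not pass. With library size alone, 4 of the 10 were lower and 2 higher (median -0.22, against -0.34 with TMM), and after correction for expression level 4 were lower. The MYC call was lost after correction for expression level (log2 fold change -0.23, edgeR adjusted p = 0.0859).

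Set beside them, 77 nuclear subunits of oxidative phosphorylation had 5 that fell and 8 that rose, with a median of 0.01 (below 0 under 7 of the 16 settings), a summed CPM of 99.5% of that in shControl libraries, and UQCRC2 at 0.73 and NDUFS6 at -0.69 as the genes that moved most. Their calls depended on the scaling, with 2 lower and 14 higher for library size alone and 7 lower and 7 higher for DESeq2 size factors, and with single libraries left out 2 to 5 were lower and 3 to 15 higher, the 15 without shRNH1 replicate 2. The 77 cytosolic ribosomal proteins had 16 that fell and 2 that rose, with a median of -0.08 and a summed CPM of 99.2%; this median changed sign under 3 settings, namely without shRNH1 replicate 2 (0.02), after correction for expression level (0.04) and with library size alone (0.02), which gave 7 lower and 4 higher. With single libraries left out, 7 to 18 of them were lower and 0 to 4 higher, the 7 and the 4 without shRNH1 replicate 2. In the main fit, 6.49% of the oxidative phosphorylation subunits fell and 10.4% rose. For cytosolic ribosomal proteins the shares were 20.8% and 2.60%, and for all genes tested 12.3% and 15.3%. Both medians lay closer to the value of all genes, 0.02, than those of the mitoribosomal subunits, and no test between lists was made.

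**Figure D5:**
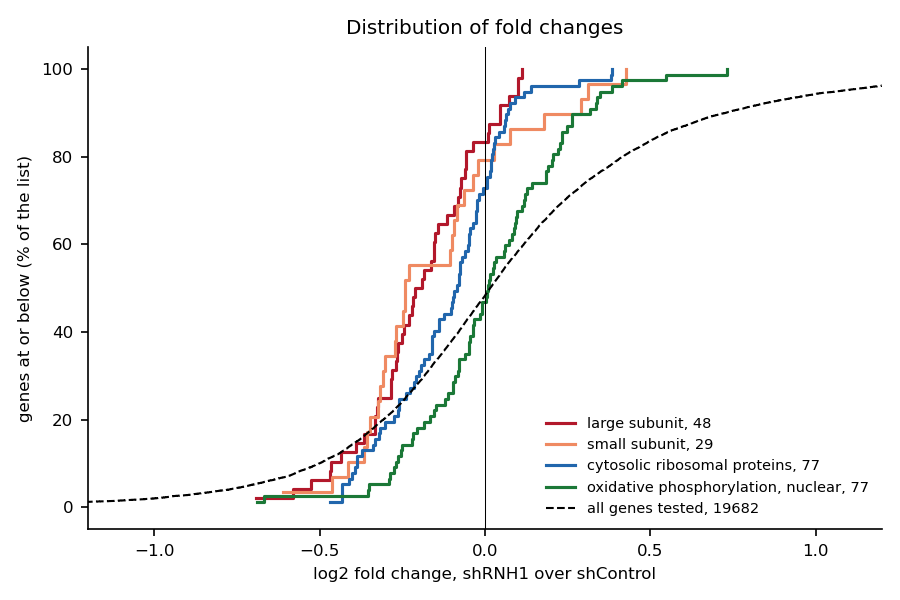
Share of genes (y axis, percent) at or below each log2 fold change of shRNH1 over shControl (x axis) for the mitoribosomal subunits, the cytosolic ribosomal proteins, the nuclear oxidative phosphorylation subunits and all genes tested. The curves of the 48 large and 29 small subunit genes cross the middle at -0.20 and -0.24, left of the other lists.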

How the data were processed

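RNA of 3 shRNH1 and 3 shControl libraries of KYSE510 cells was compared. Per the labels' protocols, libraries were made from oligo(dT)-selected RNA with random priming. The submitters' processing notes name HISAT2, StringTie, DESeq2 and the GRCh38 build; their versions, the counter and its strand setting were not stated. The deposited values are raw counts for 62700 Ensembl gene IDs, all with a symbol, and 0 columns were left unmatched. GENCODE 29 (GRCh38) gave positions, transcript length and GC content for 58207 of the IDs, and RefSeq GRCh38.p14 gave promoters.

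Counts were tested with edgeR 4.0.16 (R 4.3.3, quasi-likelihood F test, TMM, filterByExpr, no covariate), and p was adjusted by Benjamini-Hochberg across 19682 genes, threshold 0.05. A gene "fell" or "rose" where it passed. CPM are TMM-normalised, and standard errors derive from the F statistic. No p was computed over a list. Alternatives were the size factors of DESeq2 1.42.0, library size alone, DESeq2, limma-voom (limma 3.58.1), no filter, a filter at 1 CPM in 3 libraries, a replicate block, spline corrections (5 degrees of freedom, MASS 7.3.60.0.1) for expression level or for GC content and length, each replicate left out, only protein-coding genes, and other assignments to subunits. The script was tested on simulated data, where it recovered 20.9% of 67 genes changed 1.25-fold, 82.1% of 67 changed 1.5-fold and 100% of 66 changed 2-fold. False calls numbered 3 among 19157 genes run. Small changes were thus often missed in that simulation.

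The genes and lists were chosen with earlier results of these data known. The rule for named genes took RNASEH1 and RNH1, per subunit up to 8 genes past the threshold by adjusted p and the 2 highest and 2 lowest per kb, the stalk, central protuberance, tunnel exit and MRPS18 genes, MRPL58, the 5 proteins with other symbols, and per other list up to 3 genes in each direction; further genes were named after their values were seen. Replicates within a group differed by 6.61 to 21.0 in chi-square per gene, beyond sampling noise, and all were kept (Pearson's r across genes 0.987 to 0.992 within and 0.976 to 0.979 between groups). Whether the biological replicates of the labels were separate cultures was not stated, and the p-values reflect only the spread between these samples.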

Additional observations from a re-analysis of the deposited data

How the results depend on the processing

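The medians of both subunits stayed below 0 under every alternative run. Library size alone moved most: the large subunit had 5 lower, 1 higher and a median of -0.087, the small subunit 3 lower, 2 higher and a median of -0.13, and the share of higher calls among all genes was 73.9%, against 55.4% with TMM. Protein-coding genes alone gave 1 higher small subunit gene, MRPS17. With 1 replicate left out, the large subunit had 11 to 14 lower, 0 higher and a median of -0.23 to -0.16, and the small subunit 5 to 8 lower, 0 to 1 higher and a median of -0.26 to -0.17. Same-numbered samples did not deviate together (r of 0.045, 0.056 and -0.049), and a replicate block gave 11 large and 7 small subunit genes lower. Counting MRPS18A and MRPS30 in the large subunit gave 15 and 9 lower, and adding the 5 proteins of other symbols 15 and 11. Signs changed only for genes that had not passed and for medians of other lists. The values that follow are those of named genes and of the lists. Further genes changed sign as well, such as MRPL3 (-0.071 to 0.15 over the 16 settings) and MRPL13 (-0.15 to 0.12). Library size alone gave 0.0241 for the ribosomal protein median, 0.0494 for DAP3, 0.0455 for MRPL23, 0.0710 for MRPL24, 0.0512 for MRPL37, 0.0256 for MRPL45, 0.0292 for MRPL48, 0.0543 for MRPL50 and 0.00795 for MRPS18C. DESeq2 gave -0.0139 for the oxidative phosphorylation median and -0.0135 for MRPL22. DESeq2 size factors gave -0.0101 for the oxidative phosphorylation median and -0.00878 for MRPL22. The correction for expression level gave 0.0377 for the ribosomal protein median, -0.0731 for CHCHD1, 0.00330 for DAP3, -0.0759 for MRPL22 and 0.0580 for MRPL37. The correction for GC content and length gave -0.00142 for the oxidative phosphorylation median, -0.0578 for MRPL22 and -0.0206 for MRPL40. Protein-coding genes alone gave -0.00149 for the oxidative phosphorylation median. With 1 replicate left out, log2 fold changes ran from -0.0642 to 0.20 for CHCHD1, -0.14 to 0.0258 for DAP3, -0.0698 to 0.0608 for MRPL22, -0.19 to 0.0460 for MRPL23, -0.15 to 0.0862 for MRPL24, -0.11 to 0.0103 for MRPL37, -0.0171 to 0.14 for MRPL40, -0.23 to 0.0143 for MRPL47, -0.21 to 0.0144 for MRPL48, -0.27 to 0.15 for MRPL50, -0.24 to 0.0599 for MRPS18C, -0.0634 to 0.10 for PTCD3, -0.15 to 0.0185 for the ribosomal protein median and -0.0269 to 0.10 for the oxidative phosphorylation median. The cause of these changes was not tested. Depth limits the least abundant genes most, such as MRPL33, with an SE of 0.213.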

Other observations

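Many mitochondrial genes share a promoter region with a neighbour that is read in the other direction. Of the 78 genes, 29 have a protein-coding gene on the other strand whose start lies within 1000 bases of their own in GENCODE 29, and 12 of these 29 fell, as did 12 of the 48 tested genes without such a neighbour. The neighbours that are not mitoribosomal genes were counted too. Of 26 tested, 2 fell (7.69%) and 4 rose (15.4%), where 12.3% and 15.3% of all genes tested did, and the median log2 fold change was 0.03; no test against the mitoribosomal genes was made. Both falls belonged to mitochondrial genes. NDUFS6, a subunit of complex I whose start is 34 bases from that of MRPL36, had a log2 fold change of -0.69 beside -0.29 for MRPL36. TWNK, the mitochondrial DNA helicase, whose start is 148 bases from that of MRPL43, had one of -0.49 beside -0.33 for MRPL43, but exons of this pair overlap and their reads may be mixed. MRPL52 at -0.69 starts 59 bases from SLC7A7, an amino acid transporter at 0.06, which did not pass. MRPL46 of the large and MRPS11 of the small subunit start 34 bases apart and had similar log2 fold changes of -0.37 and -0.35, of which that of MRPS11 passed. The 4 neighbours that rose were PSMA2 (0.68) beside MRPL32, PNPLA7 (0.73) beside MRPL41, PELI3 (0.38) beside MRPL11 and EME2 (0.35) beside MRPS34. Without strand in the counting, reads in the stretch between such starts cannot be told apart.

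The count table held 81 pseudogenes of these genes by symbol, which together had 181 to 251 counts per library, against 115908 to 158622 for the 78 genes.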
